A study of Mus musculus with 8 samples.

Results

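The genes described here encode the proteins of the mitochondrial ribosome. They were taken as every gene symbol that begins with Mrpl or Mrps followed by a number, on probe sets that the array annotation assigns to exactly 1 gene. This rule found 77 genes on 85 probe sets, 48 of them of the large subunit (Mrpl) and 29 of the small subunit (Mrps) by symbol. All 77 passed the filter on low signal, so that they are 77 of the 13356 genes tested. Expression was measured on Affymetrix arrays in 3 dendritic cell (DC) progenitor populations sorted from mouse bone marrow, with 3 arrays of Zeb2hi CDPs, 3 of Zeb2low CDPs and 2 of pre-CD8 DCs. CDPs are common DC progenitors, and pre-CD8 DCs are committed precursors of the cross-presenting cDC1 lineage. Every animal, in all 3 groups, was heterozygous for a Zeb2-GFP fusion reporter, in which a fluorescent protein is joined to the transcriptional repressor Zeb2. No group without the reporter, no treatment and no age are given in the labels, and the split of CDPs into Zeb2hi and Zeb2low follows the reporter. Whether arrays within a group represent different mice or different sorts is not stated. The p-values therefore reflect only the scatter among these arrays, which may be technical. The series sets the populations along a developmental axis, and the questions are how the genes differ between the groups and whether the 2 subunits differ alike.

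Mitochondria keep a small genome whose messenger RNAs encode core subunits of the respiratory chain, and the mitochondrial ribosome is the machine that translates them. Its RNAs come from the mitochondrial genome, while all of its proteins come from nuclear genes, are made in the cytosol and are imported. The small subunit binds the messenger RNA and reads the codons, and the large subunit joins the amino acids and passes the new chain to the inner membrane. Some proteins have homologues in bacteria, and others were added in mitochondria.

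Array medians lay between 4.91 and 5.14 on the log2 scale, and arrays of 1 group correlated at 0.937 to 0.989. The values are RMA signals (robust multi-array average), which have no zero and no detection call, so a low signal is not proof of expression. Zeb2 itself had a mean of 9.27 in Zeb2hi CDPs, 7.68 in Zeb2low CDPs and 6.73 in pre-CD8 DCs. The summed linear signal of the cDC1 markers measured (8 of 9) was 708 to 827 on the Zeb2hi arrays, 2344 to 2557 on the Zeb2low arrays and 4956 to 5056 on the pre-CD8 arrays. The marker list of mature neutrophils (10 of 10 measured) also moved with the groups, from 10830 to 20760 on the Zeb2hi arrays to 23270 to 47430 on the Zeb2low arrays and 29150 to 54640 on the pre-CD8 arrays. Of these neutrophil markers, 3 rose in Zeb2low CDPs and 4 in pre-CD8 DCs against Zeb2hi CDPs, where 4.5% and 6.51% of all genes tested rose. All 10 markers had a positive difference in both comparisons. Their part in the results below was not tested. Among the 5 Zeb2low and pre-CD8 arrays, Zeb2low array 1 had the lowest neutrophil sum, 23270, and a median shift of the large subunit genes of -0.67 from the Zeb2hi mean, against -0.71 to -0.48 on the other 4. For the small subunit genes its shift was -0.62, against -0.76 to -0.62 on the other 4. All 5 of these arrays had higher neutrophil sums than the Zeb2hi arrays. Values within the 5 therefore do not bear on the difference from Zeb2hi CDPs. The sums for T and NK cell markers (3 of 6 measured) were 77.6 to 79.5, 102 to 160 and 114 to 157 over the 3 groups. For erythroid and megakaryocyte markers (3 of 6) they were 63.1 to 67.8, 82.3 to 97.6 and 81.9 to 162, and for B cell markers (3 of 6) 90.1 to 192, 127 to 435 and 80.6 to 98.8. Monocyte and macrophage markers (5 of 8) summed to 2101 to 3000, 1278 to 1788 and 1269 to 1691, and DC progenitor markers (7 of 7) to 3943 to 5556, 2630 to 3813 and 3045 to 3750. Linear sums weigh the strongest genes most. The monocyte marker F13a1 had means of 10.54, 8.06 and 6.74 over the 3 groups. The other 4 monocyte markers had positive differences from Zeb2hi CDPs in both comparisons. Of the DC progenitor markers, 6 had negative differences from Zeb2hi CDPs in Zeb2low CDPs and 1 a positive one. In pre-CD8 DCs 3 were negative and 4 positive. In sorted bulk samples, fewer cells that express a gene and less RNA per cell cannot be told apart.

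Most genes of the mitochondrial ribosome had their highest signal in Zeb2hi CDPs, and both later populations lay below them by similar amounts. The Zeb2hi group had the highest mean for 67 of the 77 genes, Zeb2low CDPs for 8 and pre-CD8 DCs for 2. For each array, the median over genes of the log2 signal minus the gene's own Zeb2hi mean summarises the set. For the 48 large subunit genes it was -0.04, 0.11 and -0.06 on the Zeb2hi arrays, -0.67, -0.61 and -0.48 on the Zeb2low arrays, and -0.66 and -0.71 on the pre-CD8 arrays. For the 29 small subunit genes it was -0.18, 0.12 and -0.03, then -0.62, -0.76 and -0.62, and then -0.64 and -0.69. Every Zeb2low and pre-CD8 array thus lay below every Zeb2hi array in both subunits, and the last 2 groups overlapped. Over all genes tested the same median stayed between -0.07 and 0.03 on the 8 arrays. For 48 of the 77 genes all 5 Zeb2low and pre-CD8 arrays were below all 3 Zeb2hi arrays, against 16.2% of all genes tested. In limma's F test over the 3 groups, 39 genes varied (24 large and 15 small, adjusted p under 0.05), where 17.9% of all genes tested did. Without Zeb2hi array 2 that count was 11 and without Zeb2hi array 3 it was 17. The F test share of all genes tested under these omissions is not given here. Between the CDP groups, the share of all genes tested that were lower dropped from 10.3% to 2.74% and 3.06%.

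**Figure D1:**
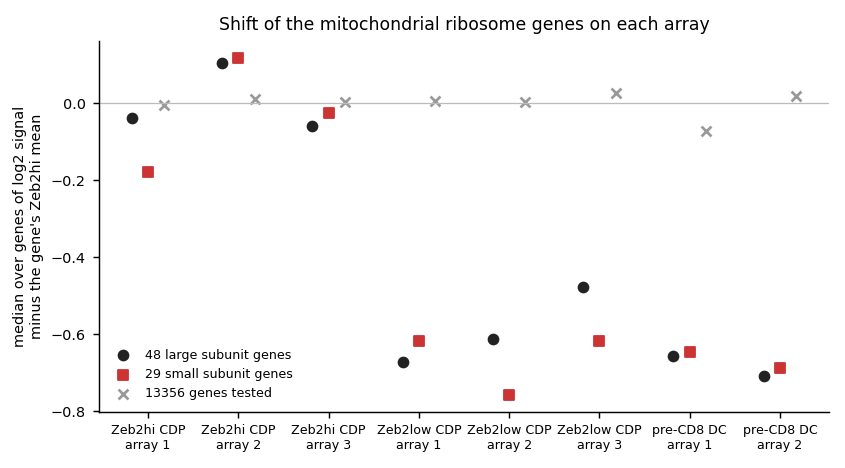
Median over genes of the log2 signal minus the gene's Zeb2hi mean (y axis) on each of the 8 arrays (x axis), for the 48 large subunit genes, the 29 small subunit genes and all 13356 genes tested. Both subunits sit near 0 on the Zeb2hi arrays and between -0.76 and -0.48 on the other 5 arrays, while all genes stay between -0.07 and 0.03.

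Between Zeb2hi and Zeb2low CDPs, 36 of the 77 genes fell and none rose in limma's test (adjusted p under 0.05, over all genes tested). Of all genes tested, 10.3% were lower and 4.5% higher in the same comparison. The 36 were 21 of 48 large subunit genes and 15 of 29 small subunit genes. The direction was negative in 68 of 77, the median log2 difference was -0.58 for the large and -0.63 for the small subunit, and the median over all genes tested was 0.03. A fall of at least 2-fold past the test was seen in 16 genes, where 4.19% of all genes tested had one. The arrays of the 2 groups did not overlap, with Zeb2low lower, in 54 genes (21.5% of all genes tested) and with Zeb2low higher in 1 (20.2%). At an unadjusted p under 0.05 there were 50 genes, against 32.8% of all genes tested. Leaving out Zeb2hi array 2 reduced the 36 calls to 14, and leaving out Zeb2hi array 3 reduced them to 12, with 2.74% and 3.06% of all genes tested then lower. A set of 12 calls passed under all 17 alternative settings, namely Mrpl9, Mrpl11, Mrpl13, Mrpl15, Mrpl16, Mrpl18, Mrpl19, Mrpl45, Mrps9, Mrps11, Mrps18a and Mrps35. In a blocked fit of the 6 CDP arrays, paired by their numbers, 48 genes were lower, which kept all 36 and added 12, and 19.0% of all genes tested were lower. The labels do not give this pairing. It was taken from correlated deviations in these same data, so the added calls are no independent support.

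Among the large subunit genes, the largest fall was that of Mrpl11, whose product forms the base of the stalk where translation factors dock. Its log2 signal was 9.25, 9.35 and 9.22 on the Zeb2hi arrays, 7.58, 7.86 and 7.59 on the Zeb2low arrays, and 8.04 and 7.86 on the pre-CD8 arrays. The Zeb2hi arrays stood apart from all others, and Zeb2low CDPs were 3.03-fold lower (log2 difference -1.60 ± 0.14, limma standard error, n = 3 and 3; adjusted p = 0.000675). Mrpl9, a large subunit protein with a bacterial homologue, gave 7.18, 7.69 and 7.43 in Zeb2hi CDPs, 5.90, 5.71 and 6.03 in Zeb2low CDPs, and 6.83 and 5.93 in pre-CD8 DCs. Here too no array overlapped with the Zeb2hi group, the 2 pre-CD8 arrays were almost 1 log2 unit apart, and the fall in Zeb2low CDPs was -1.55 ± 0.24 (adjusted p = 0.00645). Mrpl18, which lies at the central protuberance, read 9.67, 10.19 and 9.81, then 8.22, 8.47 and 8.41, and then 9.01 and 8.52. The pre-CD8 arrays lay above all 3 Zeb2low arrays and below all Zeb2hi arrays, and the difference between the CDP groups was -1.53 ± 0.19 (adjusted p = 0.0029). Mrpl15 fell by 1.45 on the log2 scale (adjusted p = 0.00181), Mrpl13 by 1.35 (adjusted p = 0.00239) and Mrpl19, a protein of the face that meets the small subunit, by 1.35 (adjusted p = 0.00411).

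Mrpl17, a protein near the exit of the peptide tunnel, spread more. It read 6.37, 7.09 and 6.93 in Zeb2hi CDPs, 4.81, 5.66 and 5.34 in Zeb2low CDPs, and 6.77 and 5.38 in pre-CD8 DCs. The CDP groups did not overlap, but 1 pre-CD8 array was at the Zeb2hi level and the other at the Zeb2low level. Its fall in Zeb2low CDPs (-1.53 ± 0.37, adjusted p = 0.0274) was lost without Zeb2hi array 2 (adjusted p = 0.109), Zeb2hi array 3 (0.101), Zeb2low array 1 (0.0708) or Zeb2low array 3 (0.0697), in a range of 0.000786 to 0.109 over all alternatives. Mrpl45, which tethers the ribosome to the inner membrane at the tunnel exit, fell by 0.96 (adjusted p = 0.00904), with signals of 5.65, 5.40 and 5.26 against 4.34, 4.52 and 4.57. Mrpl58, a hydrolase that frees stalled chains and is built into the large subunit, was at 7.74, 7.81 and 7.89 against 6.86, 7.18 and 7.38. These arrays did not overlap, and the difference of -0.67 ± 0.16 (adjusted p = 0.0268) was lost without Zeb2hi array 2 (0.0977), Zeb2hi array 3 (0.105), Zeb2low array 1 (0.0549) or Zeb2low array 2 (0.0667).

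The other proteins of the factor-binding stalk did not pass the test beside Mrpl11. Mrpl10, which anchors the stalk, differed by -0.54 ± 0.19 (adjusted p = 0.0952), and Mrpl12, the stalk protein that contacts translation factors, by -0.47 ± 0.25 (adjusted p = 0.222). On Zeb2hi array 1 Mrpl12 was at 8.28, below all Zeb2low arrays (8.31 to 8.50), while the other two Zeb2hi arrays were at 9.17 and 9.24; without array 1 its adjusted p was 0.0194. The core proteins Mrpl3 (-0.44, adjusted p = 0.11) and Mrpl4 (-0.48, adjusted p = 0.225) did not pass, and neither did Mrpl37, which has no bacterial homologue (-0.54, adjusted p = 0.209). For Mrpl4, Zeb2low array 1 read 7.01 and the other 7 arrays 7.997 to 8.26. The largest differences short of the threshold were those of Mrpl22 (-0.96, adjusted p = 0.0535), Mrpl35 (-0.61, 0.0587) and Mrpl20 (-0.59, 0.0615). In the blocked fit of the CDP arrays these 3 passed (adjusted p of 0.00919, 0.0273 and 0.0159), as did Mrpl10 (0.023) and Mrpl37 (0.0459).

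**Figure D2:**
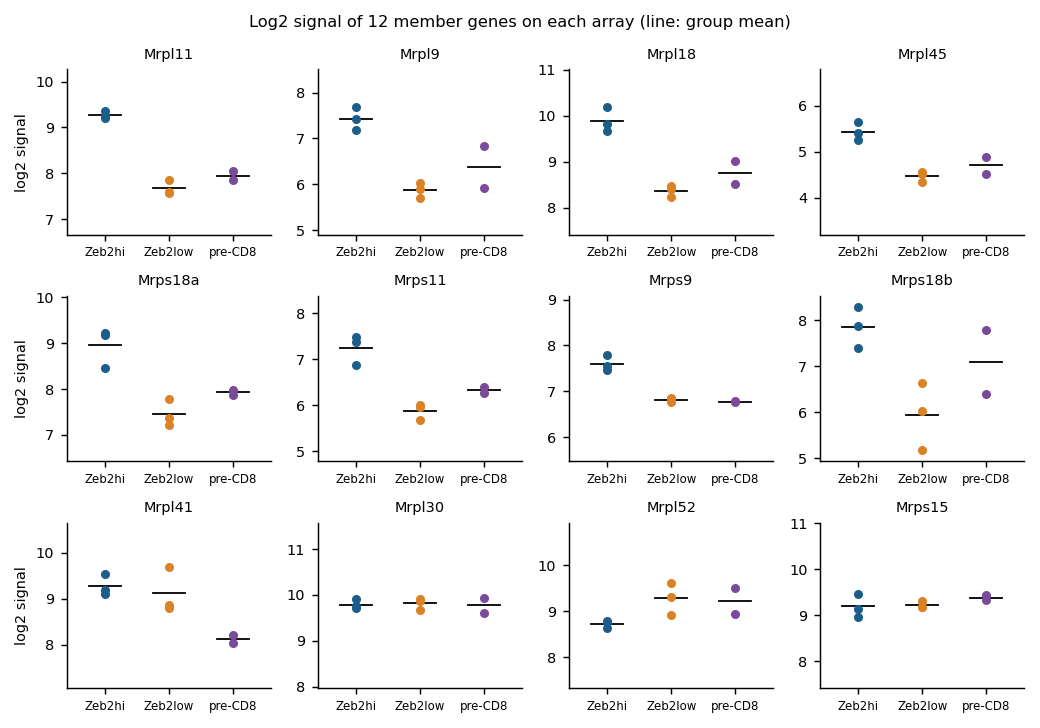
Log2 signal (y axis) of 12 genes of the mitochondrial ribosome on each array (points) with the group mean (line), by group (x axis); every panel spans the same number of log2 units. Mrpl11, Mrpl9, Mrpl18, Mrps18a, Mrps11 and Mrps9 show Zeb2hi arrays above all others, Mrps18b shows wide spread within groups, and Mrpl30 and Mrps15 show overlapping groups.

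In the small subunit, Mrps18b had the largest fall and the widest spread. Its signal was 7.39, 8.29 and 7.87 on the Zeb2hi arrays, 5.18, 6.64 and 6.03 on the Zeb2low arrays, and 7.79 and 6.41 on the pre-CD8 arrays. The CDP groups did not overlap, the arrays within each group differed by 0.90 to 1.46, and the difference was -1.90 ± 0.45 (adjusted p = 0.0252). That call was lost without Zeb2hi array 2 (0.101), Zeb2hi array 3 (0.0865), Zeb2low array 1 (0.0564) or Zeb2low array 3 (0.0652). Its paralogue Mrps18a, which despite its symbol sits in the large subunit in solved structures, read 8.45, 9.18 and 9.23, then 7.22, 7.79 and 7.37, and then 7.99 and 7.87. All 5 later arrays were below the Zeb2hi arrays, and the CDP difference was -1.49 ± 0.24 (adjusted p = 0.00656). The third paralogue, Mrps18c, is the only 1 of these 3 that is counted below among the genes with a bacterial homologue. It did not pass (-0.59 ± 0.22, adjusted p = 0.101, and 0.0331 in the blocked CDP fit). The 3 differences were not tested against each other.

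Mrps11, a protein of the platform next to the exit of the messenger RNA, read 6.88, 7.48 and 7.37 in Zeb2hi CDPs, 5.68, 6.004 and 5.96 in Zeb2low CDPs, and 6.39 and 6.26 in pre-CD8 DCs. The 3 groups did not overlap, with pre-CD8 DCs between the others, and the CDP difference was -1.36 ± 0.19 (adjusted p = 0.0039). Mrps9 was at 7.79, 7.56 and 7.47, then 6.84, 6.76 and 6.86, and then 6.80 and 6.76. Both later groups were tight and overlapped with each other, and the difference between the CDP groups was -0.78 ± 0.14 (adjusted p = 0.00952). Mrps35, a protein added in mitochondria, fell by 0.98 (adjusted p = 0.00568). Mrps26 fell by 1.10 (adjusted p = 0.016) and Mrps30, another protein of the large subunit by structure, by 0.93 (adjusted p = 0.0139). Both calls were lost without Zeb2hi array 2 (0.0724 and 0.0662) or Zeb2hi array 3 (0.0684 and 0.0631). Mrps23 fell by 1.07 (adjusted p = 0.0171), which did not hold without Zeb2hi array 3 (0.0533) or Zeb2low array 3 (0.0539).

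The proteins along the path of the messenger RNA gave mixed results. Mrps5, at the entry of the channel, was at 6.75, 7.22 and 7.06 against 5.99, 6.08 and 6.49, a difference of -0.83 ± 0.18 (adjusted p = 0.0205). Mrps7, at the exit side, differed by -0.82 ± 0.22 (adjusted p = 0.0406), and Mrps28 by -0.81 ± 0.18 (adjusted p = 0.0215). Mrps27, a protein with helical repeats of the RNA-binding PPR type, differed by -0.68 ± 0.16 (adjusted p = 0.0261). Arrays did not overlap in any of these 4, and all 4 calls were lost without Zeb2hi array 2 (adjusted p = 0.0911 for Mrps5, 0.15 for Mrps7, 0.0942 for Mrps28 and 0.109 for Mrps27), without Zeb2hi array 3 (0.0829, 0.15, 0.077 and 0.0841) and without Zeb2low array 2 (0.0649, 0.0899, 0.0532 and 0.0815). Mrps7 was also lost without Zeb2low array 1 (0.0981), and Mrps7 and Mrps27 without Zeb2low array 3 (0.0603 and 0.08). Mrps12, a protein of the decoding centre, was at 8.27, 8.57 and 8.52 against 8.25, 8.30 and 8.26 and differed by -0.18 ± 0.14 (adjusted p = 0.365), with a difference of 0.021 after quantile normalization. Mrps34 (-0.26, adjusted p = 0.259) and Mrps36 (-0.20, adjusted p = 0.45) did not pass either. The product of Mrps36 is now assigned to the 2-oxoglutarate dehydrogenase complex and not to the ribosome. Short of the threshold after Mrps18c came Mrps21 (-0.58, adjusted p = 0.0693) and Mrps10 (-0.56, adjusted p = 0.106), which reached 0.0142 and 0.0211 in the blocked CDP fit.

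**Figure D3:**
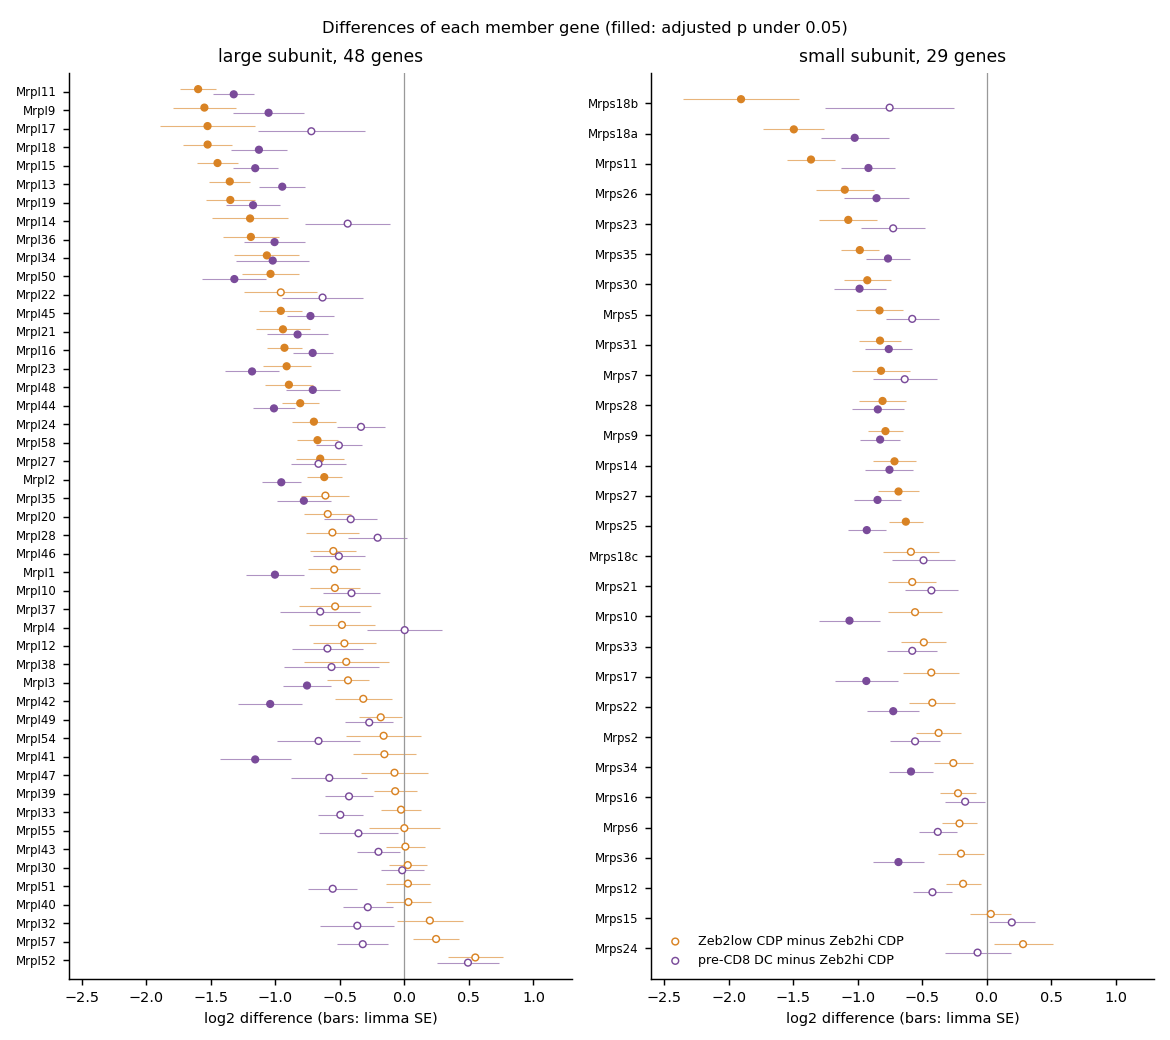
Log2 difference from Zeb2hi CDPs (x axis) of each large subunit gene (left) and small subunit gene (right), for Zeb2low CDPs and pre-CD8 DCs; bars are limma's standard error and filled points have an adjusted p under 0.05. In Zeb2low CDPs 36 and in pre-CD8 DCs 37 points are filled, all of them below 0, and both comparisons share the 3 Zeb2hi arrays.

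Promoters are shown for the genes with the largest falls that passed under every alternative, Mrpl11 and Mrpl9 of the large and Mrps18a and Mrps11 of the small subunit by symbol, and for Mrpl52, the gene whose Zeb2low arrays were all above the Zeb2hi arrays. The sequences are the 250 bases before the annotated start in RefSeq (GRCm38.p6), all on the plus strand, with matches to 4 motifs in capitals: TGCGCA, the core bound by NRF1 (its own reverse complement); CCGGAAG, an ETS family motif; ATGGCGG, a YY1 motif; and GGGCGG, bound by Sp1. Matches on the minus strand read as the reverse complement.
Mrpl11, chr19:4962056-4962305: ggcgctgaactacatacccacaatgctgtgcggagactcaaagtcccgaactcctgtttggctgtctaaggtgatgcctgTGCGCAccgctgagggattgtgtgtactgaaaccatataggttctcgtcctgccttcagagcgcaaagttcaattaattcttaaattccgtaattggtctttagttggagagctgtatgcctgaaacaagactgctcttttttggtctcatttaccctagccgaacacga
Mrpl9, chr3:94443086-94443335: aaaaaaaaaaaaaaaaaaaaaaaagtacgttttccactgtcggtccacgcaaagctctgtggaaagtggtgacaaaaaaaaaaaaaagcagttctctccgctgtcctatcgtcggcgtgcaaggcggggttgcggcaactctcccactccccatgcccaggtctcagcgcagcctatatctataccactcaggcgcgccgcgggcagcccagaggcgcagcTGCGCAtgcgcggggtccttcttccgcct
Mrps18a, chr17:46110754-46111003: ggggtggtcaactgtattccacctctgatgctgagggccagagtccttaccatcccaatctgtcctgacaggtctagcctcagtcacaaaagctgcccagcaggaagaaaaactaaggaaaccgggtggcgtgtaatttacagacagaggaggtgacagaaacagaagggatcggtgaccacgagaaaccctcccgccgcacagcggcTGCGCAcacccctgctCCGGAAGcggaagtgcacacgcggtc
Mrps11, chr7:78782881-78783130: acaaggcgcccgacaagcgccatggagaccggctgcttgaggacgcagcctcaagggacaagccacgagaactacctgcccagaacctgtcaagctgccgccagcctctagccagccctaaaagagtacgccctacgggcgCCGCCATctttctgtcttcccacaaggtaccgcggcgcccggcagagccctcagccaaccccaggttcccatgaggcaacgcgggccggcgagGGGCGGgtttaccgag
Mrpl52, chr14:54426659-54426908: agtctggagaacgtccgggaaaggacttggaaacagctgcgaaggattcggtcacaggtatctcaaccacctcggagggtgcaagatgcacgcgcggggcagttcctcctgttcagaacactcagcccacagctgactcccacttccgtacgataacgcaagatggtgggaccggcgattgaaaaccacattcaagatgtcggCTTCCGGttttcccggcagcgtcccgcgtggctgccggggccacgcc

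The TGCGCA match starts 170 bases before the start in Mrpl11, 29 in Mrpl9 and 42 in Mrps18a, where a CCGGAAG match follows at 26 bases. Mrps11 holds ATGGCGG, on the minus strand, at 109 bases and GGGCGG at 16, and Mrpl52 holds CCGGAAG, on the minus strand, at 47. Mrpl9 and Mrps18a also hold ATGGCGG in the span searched, but not within the 250 bases shown. The reference held a promoter for 68 of the 77 genes, searched on both strands from 250 bases before to 50 after the start. Among these, 36.8% held CCGGAAG, against 18.3% of the 10625 genes tested that have a promoter there. For TGCGCA the shares were 30.9% and 14.7%, and for ATGGCGG 17.6% and 8.58%. GGGCGG was found in 34 of the 68 against 64.8%, CACGTG (an E-box) in 7.35% against 11.4%, and TATAAA (the TATA box) in 7.35% against 9.22%. By subunit, CCGGAAG was in 33.3% of large and 42.3% of small subunit promoters, TGCGCA in 28.6% and 34.6%, ATGGCGG in 14.3% and 23.1%, and GGGCGG in 40.5% and 65.4%. Of the 31 genes that fell in Zeb2low CDPs and have a promoter, 41.9% held TGCGCA, against 21.6% of the 37 others, and 38.7% against 35.1% held CCGGAAG. For ATGGCGG these shares were 25.8% and 10.8%. GGGCGG went the other way, with 41.9% and 56.8%, as did CACGTG (6.45% and 8.11%) and TATAAA (6.45% and 8.11%). These are matches of letters, given with no test, and not sites shown to be bound.

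A minority of the genes did not share the lower signal. Mrpl52, a protein specific to the mitochondrial ribosome, was at 8.65, 8.79 and 8.77 in Zeb2hi CDPs, 9.61, 8.92 and 9.31 in Zeb2low CDPs, and 8.93 and 9.52 in pre-CD8 DCs. All 5 later arrays were above the Zeb2hi arrays, but the difference of 0.55 ± 0.21 between the CDP groups did not pass (adjusted p = 0.117, 0.055 to 0.27 over the alternatives). Mrpl30 was at 9.91, 9.76 and 9.71, then 9.92, 9.67 and 9.86, and then 9.61 and 9.94. Its 3 group means lay within 0.043 of each other, the narrowest range of the 77 genes, and the groups overlapped. The next narrowest were Mrps15 (0.19), Mrpl43 (0.21), Mrps16 (0.22) and Mrpl49 (0.27). Mrps15 read 8.96, 9.47 and 9.14, then 9.18, 9.30 and 9.18, and then 9.32 and 9.44, with no group apart from the Zeb2hi arrays. At the other end the group means spanned 1.90 in Mrps18b, 1.60 in Mrpl11, 1.55 in Mrpl9 and 1.53 in both Mrpl17 and Mrpl18.

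From Zeb2low CDPs to pre-CD8 DCs no gene of the mitochondrial ribosome passed limma's test in either direction. Of all genes tested, 0.217% were lower and 0.337% higher in this step. At an unadjusted p under 0.05 there were 9 of 77 genes, 7 large and 2 small, where 13.2% of all genes tested had one. The median difference was -0.05 for the large and -0.04 for the small subunit, and over all genes tested it was -0.03. The arrays did not overlap in 16 genes with pre-CD8 DCs lower (15.4% of all genes tested) and 12 with pre-CD8 DCs higher (12.4%). Mrpl41 had the largest drop, with signals of 9.69, 8.87 and 8.81 in Zeb2low CDPs and 8.03 and 8.21 in pre-CD8 DCs. These arrays did not overlap, and the difference was -1.001 ± 0.28 (adjusted p = 0.175). The largest positive differences were those of Mrps18b (1.15 ± 0.50, adjusted p = 0.375), Mrpl17 (0.80 ± 0.41, adjusted p = 0.437) and Mrpl14 (0.76 ± 0.33, adjusted p = 0.378). In Mrps18b and Mrpl17 they rested on pre-CD8 array 1, which was 1.38 to 1.39 above array 2, and Mrpl14 read 6.98, 7.16 and 7.36 against 8.47 and 7.38. Mrps10 (-0.51, adjusted p = 0.395) and Mrps17 (-0.50, adjusted p = 0.412) were the largest drops of the small subunit. The 2 pre-CD8 arrays differed by over 1 log2 unit in 5 genes, as the Zeb2low arrays did, while the Zeb2hi arrays did so in 0.

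Against Zeb2hi CDPs, 37 genes were lower and 0 higher in pre-CD8 DCs, 21 of 48 large and 16 of 29 small, where 11.1% of all genes tested were lower and 6.51% higher. The same Zeb2hi arrays serve here as in the comparison with Zeb2low CDPs, so the values stand side by side and are no independent repeat. The median difference was -0.66 for the large and -0.72 for the small subunit and -0.02 over all genes tested, and 74 of 77 differences were negative. At least 2-fold falls past the test numbered 15, where 5.23% of all genes tested had one. The arrays did not overlap, with pre-CD8 DCs lower, in 60 genes (27.1% of all genes tested), and 50 genes had an unadjusted p under 0.05 (31.8%). The count of 37 dropped to 11 without Zeb2hi array 2, 16 without Zeb2hi array 3, 19 without pre-CD8 array 1 and 20 without pre-CD8 array 2. The share of all genes tested that were lower dropped too, from 11.1% to 5.33%, 5.81%, 6.06% and 8.14%. In 10 genes the call passed under all 16 alternatives: Mrpl2, Mrpl11, Mrpl13, Mrpl15, Mrpl18, Mrpl19, Mrpl23, Mrpl44, Mrps9 and Mrps25.

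Mrpl11 was again 2.50-fold lower (-1.32 ± 0.16, adjusted p = 0.00138), with Mrpl15 at -1.16 (adjusted p = 0.00362) and Mrpl19 at -1.17 (adjusted p = 0.00719). Mrpl23, which forms the docking site at the tunnel exit, was at 10.00, 10.19 and 9.99 in Zeb2hi CDPs, 8.88, 9.50 and 9.06 in Zeb2low CDPs, and 9.02 and 8.73 in pre-CD8 DCs. No later array reached the Zeb2hi arrays, and the pre-CD8 difference was -1.18 ± 0.21 (adjusted p = 0.00673). Mrpl50, specific to mitochondria, read 7.90, 8.02 and 7.75, then 6.37, 7.08 and 7.11, and then 6.39 and 6.75. It was 2.49-fold lower in pre-CD8 DCs (-1.32 ± 0.25, adjusted p = 0.00852), a call lost without pre-CD8 array 1 (0.0586). In Mrpl41 the pre-CD8 arrays stood apart from both CDP groups. Its Zeb2hi arrays read 9.55, 9.19 and 9.10, it did not pass between the CDP groups (-0.16 ± 0.25, adjusted p = 0.677; 0.14 after quantile normalization), and pre-CD8 DCs differed from Zeb2hi CDPs by -1.16 ± 0.28 (adjusted p = 0.022). That call was lost without Zeb2hi array 1 (0.0558), Zeb2hi array 2 (0.0596), pre-CD8 array 1 (0.106) or pre-CD8 array 2 (0.055).

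In the small subunit, Mrps25 had the smallest adjusted p in pre-CD8 DCs, with signals of 7.42, 7.15 and 7.24 in Zeb2hi CDPs, 6.67, 6.61 and 6.65 in Zeb2low CDPs, and 6.33 and 6.35 in pre-CD8 DCs. The 3 groups stood apart in that order, and the pre-CD8 difference from Zeb2hi CDPs was -0.93 ± 0.15 (adjusted p = 0.00436). Mrps10 had the largest difference (-1.06 ± 0.23, adjusted p = 0.0162), lost without Zeb2hi array 2 (0.062), Zeb2hi array 3 (0.0603) or pre-CD8 array 2 (0.0836). Mrps18a (-1.02, adjusted p = 0.0302) and Mrps11 (-0.92, adjusted p = 0.0193) were lost without Zeb2hi array 2 (0.101 and 0.0703), Zeb2hi array 3 (0.0993 and 0.0699), pre-CD8 array 1 (0.0948 and 0.0625) or pre-CD8 array 2 (0.106 and 0.0753). Mrps30 (-0.99, adjusted p = 0.0126) was lost without pre-CD8 array 1 (0.0566) or Zeb2hi array 2 (0.05 after rounding). Mrps17 (-0.93, adjusted p = 0.0306) was lost without any 1 of the 3 Zeb2hi arrays (0.0578, 0.0967 and 0.0797), without Zeb2low array 3 (0.0502) and without pre-CD8 array 1 (0.18). Short of the threshold were Mrpl17 (-0.72, adjusted p = 0.27), Mrpl27 (-0.67, 0.0603) and Mrpl54 (-0.67, 0.199) in the large subunit. In the small subunit they were Mrps18b (-0.75, adjusted p = 0.342), Mrps23 (-0.72, 0.0799) and Mrps7 (-0.64, 0.115). Mrpl54 read 7.75 on pre-CD8 array 1 and 9.03 on array 2, and without array 2 its adjusted p was 0.0106.

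The 2 subunits differed little in the size of their shift. The proteins grouped by origin gave a wider span, mainly in Zeb2low CDPs. By symbol the median for Zeb2low CDPs was -0.58 (large) and -0.63 (small). With Mrps18a and Mrps30 counted in the large subunit, where structures place them, and Mrps36 left out, it was -0.60 over 50 genes and -0.61 over 26. The grouping by origin went back to subunits by symbol and used a fixed list of proteins with a bacterial homologue. The list included Mrpl55 (-0.0008), an assignment that was not checked. Mrps18a and Mrps18b, paralogues of Mrps18c, counted as without a homologue, as did Mrps30. Among large subunit genes listed with a homologue 16 of 30 fell (median -0.68), and among the others 5 of 18 did (median -0.25). In the small subunit the counts were 6 of 16 with a homologue (median -0.57) and 9 of 12 without (median -0.88). Mrps18a and Mrps30 were among the 9. In pre-CD8 DCs against Zeb2hi CDPs the corresponding counts were 15 of 30 (median -0.72), 6 of 18 (-0.56), 6 of 16 (-0.57) and 9 of 12 (-0.76). Of all genes tested, 10.3% were lower in Zeb2low CDPs (median 0.03) and 11.1% in pre-CD8 DCs (median -0.02). None of these groups was tested against another.

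For 8 genes a second probe set with 1 gene was on the array, and it gave the same call as the one used in 3 of them and another in 5. Which of the 2 reads the gene alone was not tested, and near-identical copies of a gene can share probes. Mrpl47 differed most. Its used probe set read 6.66, 6.26 and 6.09 in Zeb2hi CDPs and 6.77, 5.72 and 6.29 in Zeb2low CDPs, which overlapped (-0.08 ± 0.26, adjusted p = 0.852). The second read 6.51, 6.93 and 7.10 against 5.72, 5.19 and 5.33, which did not overlap (-1.43 ± 0.25, adjusted p = 0.00967), and it also passed in pre-CD8 DCs against Zeb2hi CDPs (-1.37 ± 0.28, adjusted p = 0.0136). In a fit of all 14639 probe sets of 1 gene that passed the filter, the used probe set of Mrpl27 passed in Zeb2low CDPs (-0.65, adjusted p = 0.0491) and its second did not (-0.47, adjusted p = 0.151). The call of Mrpl27 was near the threshold and was lost without any 1 of the Zeb2hi arrays (0.0793, 0.167 and 0.124) and without Zeb2low array 2 (0.103) or 3 (0.134). For Mrps5 the second probe set differed by -0.67 (adjusted p = 0.183). In pre-CD8 DCs against Zeb2hi CDPs the second probe set of Mrpl41 did not pass (-0.72, adjusted p = 0.0893), and for Mrps33 the second passed (-0.65, adjusted p = 0.0452) while the used one did not (-0.58, adjusted p = 0.077). Mrpl23, Mrpl51 and Mrps36 gave like calls on both. The pair of Mrpl23 gave nearly the same signal on every array, with differences of -1.18 and -1.20 in pre-CD8 DCs.

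**Figure D4:**
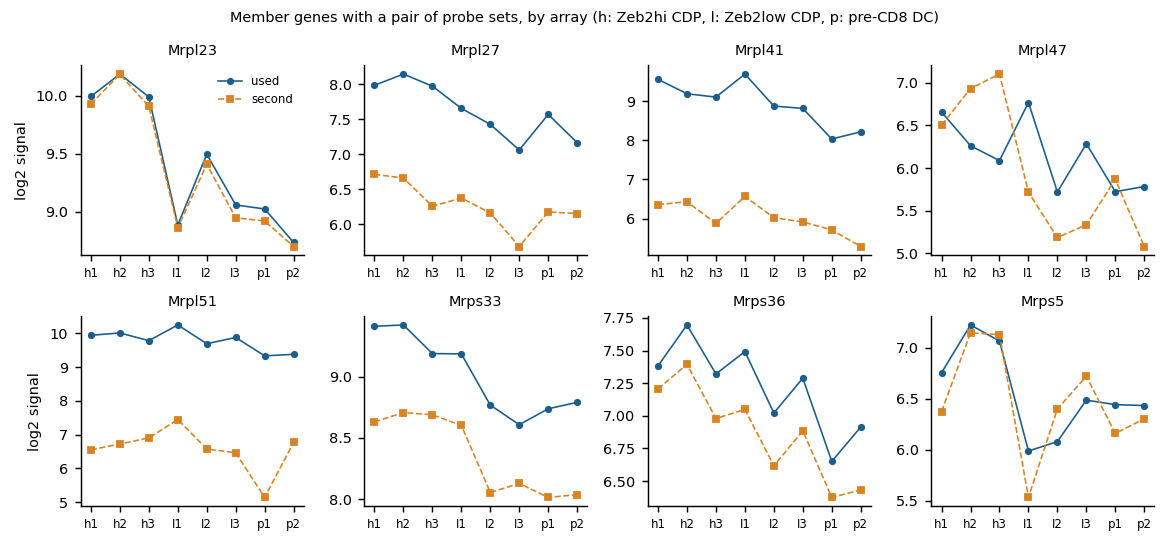
Log2 signal (y axis) on the 8 arrays (x axis; h Zeb2hi, l Zeb2low, p pre-CD8) of the used and the second probe set of the 8 genes with a pair. The 2 lines of Mrpl23 lie together, and for Mrpl47 only the second probe set falls from 6.51 to 7.10 on the Zeb2hi arrays to 5.19 to 5.72 on the Zeb2low arrays.

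Proteins of the mitochondrial ribosome that carry other names were few. Dap3, Chchd1, Ptcd3 and Gadd45gip1 were measured, and 0 of 4 passed in Zeb2low CDPs (median -0.36), with 3 of 4 at an unadjusted p under 0.05. Of all genes tested, 10.3% were lower in this comparison and 32.8% had an unadjusted p under 0.05. In pre-CD8 DCs against Zeb2hi CDPs, where 11.1% of all genes tested were lower, 2 of 4 fell (median -0.69). They were Ptcd3, at the entry of the messenger RNA channel (-0.68, adjusted p = 0.026), and Gadd45gip1, at the tunnel exit (-0.64, adjusted p = 0.0202). Ptcd3 was lost without Zeb2hi array 1 (0.0539), Zeb2hi array 2 (0.0661), pre-CD8 array 1 (0.117) or pre-CD8 array 2 (0.0567). Gadd45gip1 was lost without Zeb2hi array 2 (0.0717), Zeb2hi array 3 (0.0688) or pre-CD8 array 1 (0.104).

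Of 18 factors of mitochondrial translation, 5 fell in Zeb2low CDPs (median -0.40) and 4 in pre-CD8 DCs against Zeb2hi CDPs (median -0.50), and none rose. These are 27.8% and 22.2% of the list, where 10.3% and 11.1% of all genes tested were lower. Tufm, the elongation factor that delivers the aminoacyl-tRNA, read 7.47, 8.17 and 8.20 in Zeb2hi CDPs, 6.09, 6.24 and 6.39 in Zeb2low CDPs, and 7.09 and 6.32 in pre-CD8 DCs. No later array reached the Zeb2hi arrays, and the CDP difference was -1.70 (adjusted p = 0.00564), lost without Zeb2hi array 2 (0.0789) or 3 (0.0767). Tsfm, which recharges Tufm with GTP, fell by 1.12 (adjusted p = 0.0182), also lost without Zeb2hi array 2 (0.0781) or 3 (0.0787). Lrpprc, which stabilises mitochondrial messenger RNAs, differed from Zeb2hi CDPs by -1.09 in Zeb2low CDPs (adjusted p = 0.00547). In pre-CD8 DCs the difference was -1.20 (adjusted p = 0.00362). Guf1, a GTPase of mitochondrial elongation, was at 7.35, 7.07 and 7.24, then 7.03, 6.70 and 6.84, and then 5.67 and 5.79. It was the 1 gene of these lists that passed between Zeb2low CDPs and pre-CD8 DCs (-1.12, adjusted p = 0.0278). That call held without Zeb2hi array 1, and without any 1 of the other 7 arrays its adjusted p was 0.0534 to 0.192. Against Zeb2hi CDPs the pre-CD8 difference was -1.49 (adjusted p = 0.00101), and Tufm differed there by -1.24 (adjusted p = 0.0199; 0.149, 0.147, 0.0756 and 0.103 without Zeb2hi array 2, Zeb2hi array 3, pre-CD8 array 1 and pre-CD8 array 2).

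Of 30 ribosome assembly factors, 7 fell in Zeb2low CDPs (median -0.28) and 5 in pre-CD8 DCs against Zeb2hi CDPs (median -0.37), with none higher. The shares were 23.3% and 16.7%, against 10.3% and 11.1% of all genes tested. The GTPase Gtpbp10, which acts on the large subunit, differed by -1.27 in Zeb2low CDPs (adjusted p = 0.00962). Its pre-CD8 difference was -1.37 (adjusted p = 0.00774). Fastkd2, an RNA-binding protein needed for the large subunit RNA, fell by 0.93 (adjusted p = 0.0189; 0.0694, 0.082 and 0.0502 without Zeb2hi array 2, Zeb2hi array 3 and Zeb2low array 2), and Mtg1 by 0.91 (adjusted p = 0.0104; 0.0547 and 0.0509 without Zeb2hi array 2 and 3). In pre-CD8 DCs C1qbp had a difference of -1.09 (adjusted p = 0.0078). Of 11 genes of mitochondrial transcription and RNA processing, 3 fell in Zeb2low CDPs (median -0.47) and 6 in pre-CD8 DCs against Zeb2hi CDPs (median -0.66). That is 27.3% and 54.5% of a short list, against 10.3% and 11.1% of all genes tested. Tfam, which packs and transcribes mitochondrial DNA, read 5.97, 6.92 and 6.41, then 5.78, 4.85 and 4.84, and then 5.05 and 4.73. Zeb2low CDPs differed from Zeb2hi CDPs by -1.28 (adjusted p = 0.0284), and for pre-CD8 DCs the difference was -1.55 (adjusted p = 0.0183). The first was lost without Zeb2hi array 2 (0.109), Zeb2hi array 3 (0.0933), Zeb2low array 2 (0.0857) or Zeb2low array 3 (0.0901), and the second without Zeb2hi array 2 (0.0598), Zeb2hi array 3 (0.0552), pre-CD8 array 1 (0.0565) or pre-CD8 array 2 (0.0813). Prorp, the nuclease of mitochondrial RNase P, was at 7.60, 7.41 and 7.45, then 6.65, 6.68 and 6.98, and then 5.83 and 6.14. The 3 groups stood apart in that order, with differences from Zeb2hi CDPs of -0.72 (adjusted p = 0.0198; 0.0689, 0.0714 and 0.0642 without Zeb2hi array 2, Zeb2hi array 3 and Zeb2low array 2) and -1.50 (adjusted p = 0.0012). Hsd17b10, its partner in RNase P, had a difference of -0.86 in Zeb2low CDPs (adjusted p = 0.0144; 0.0684 and 0.0661 without Zeb2hi array 2 and 3). Pnpt1, which degrades mitochondrial RNA, had one of -1.06 in pre-CD8 DCs (adjusted p = 0.0167; 0.057 and 0.0932 without Zeb2hi array 3 and pre-CD8 array 1). Genes encoded in the mitochondrial genome, which this ribosome translates, were not analysed here.

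**Figure D5:**
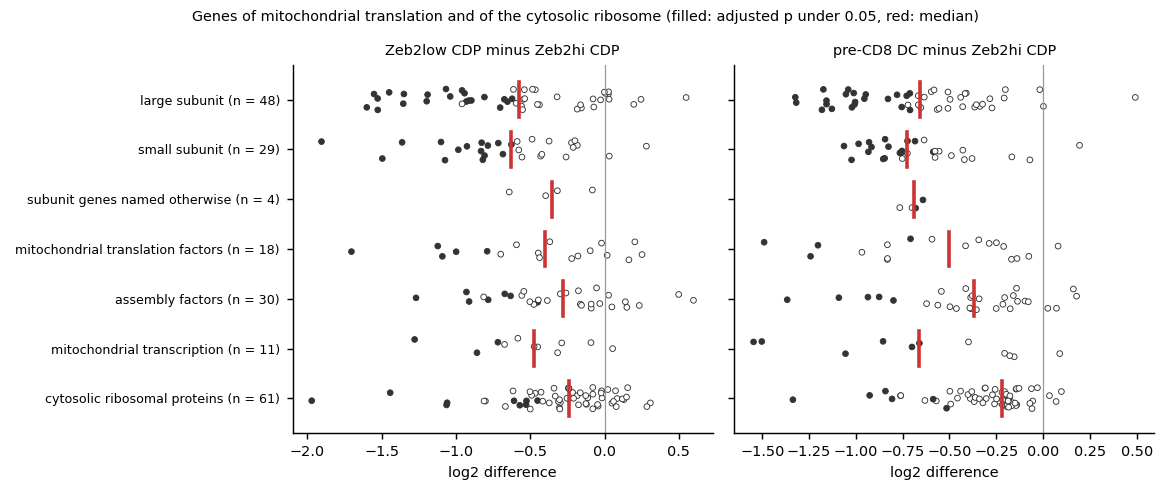
Log2 difference from Zeb2hi CDPs (x axis) of every gene in the 2 subunits and in the related lists (rows), in Zeb2low CDPs (left) and pre-CD8 DCs (right); filled points have an adjusted p under 0.05 and the red line is the list's median. In Zeb2low CDPs the medians run from -0.63 for the small subunit to -0.24 for the cytosolic ribosomal proteins.

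Proteins of the cytosolic ribosome, measured on the same arrays, had 9 of 61 genes lower in Zeb2low CDPs (median -0.24) and 7 of 61 lower in pre-CD8 DCs against Zeb2hi CDPs (median -0.22), with none higher. These shares of 14.8% and 11.5% stand against 10.3% and 11.1% of all genes tested, so the pre-CD8 count is at the background. Rpl5 (-1.97, adjusted p = 0.0051), Rps3 (-1.44, adjusted p = 0.0029) and Rpl7 (-1.06, adjusted p = 0.0216) had the largest differences in Zeb2low CDPs. Rpl7 was lost without Zeb2hi array 2 (0.0882), Zeb2hi array 3 (0.0609) or Zeb2low array 3 (0.0674). In pre-CD8 DCs they were Rpl5 (-1.34, adjusted p = 0.0225), Rps27l (-0.93, adjusted p = 0.00779) and Rpl34 (-0.84, adjusted p = 0.0237). Rpl5 was lost there without any 1 of the Zeb2hi arrays (0.0536, 0.0667 and 0.0637) or pre-CD8 array 2 (0.0546), and Rpl34 without Zeb2hi array 1 (0.0523), Zeb2hi array 2 (0.0857), pre-CD8 array 1 (0.0835) or pre-CD8 array 2 (0.0814). Cytosolic ribosomal protein genes have many near-identical pseudogene copies that can share probes, and the 2 kinds of ribosome were not tested against each other.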

How the data were processed

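The authors deposited 1 linear intensity per probe set for each of 8 Affymetrix arrays. The submitters' processing notes name RMA and Expression Console without versions. Per the labels' protocols, cells were sorted by flow cytometry and their total RNA was amplified with a whole-transcriptome kit for small amounts, which can add spread to low signals. The number of arrays limits the precision.

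Intensities were log2 transformed. The annotation names 1 gene for 21789 probe sets, several for 1621 and none for 5443. Only the first kind was used, which omits 1 probe set that names a mitochondrial ribosome gene with another gene. The filter asked for a signal over the 40th percentile of its array on 2 or more arrays. Of several probe sets for a gene, that of highest mean signal stood for it (13356 genes). Groups were compared with limma 3.58.1 in R 4.3.3 (lmFit and eBayes, two-sided), all 8 arrays in 1 fit with 5 residual degrees of freedom, with Benjamini-Hochberg adjustment over all genes tested at 0.05; "adjusted p" is this value, and a value after ± is limma's standard error. The fit was also run on simulated data with independent noise for each gene and array. Such data cannot show how the fit handles deviations that arrays share.

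The members, lists and tests were chosen with earlier results of these data known. The genes named were, by comparison and subunit, up to 6 past the test with arrays that do not overlap and 3 not past it, a fixed set of members, those whose probe sets disagree, the extremes of the range of group means, and up to 3 genes of each other list. Titles give the groups and replicate numbers. The labels do not say what the numbers mean; deviations from the group mean of same-numbered Zeb2hi and Zeb2low arrays correlated at 0.48, 0.41 and 0.31 over genes, so the number was taken as pairing the CDP arrays, while the pre-CD8 arrays correlated with their numbers at -0.59 to -0.17. Promoters came from RefSeq (GRCm38.p6). No genome build of the array was found in the sources used, so no probe set is placed.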

Additional observations from a re-analysis of the deposited data

How the results depend on the processing

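Limits are the 2 or 3 arrays in a group, spread between them that leaves many calls near the threshold, and signals with no detection call. The median differences of both subunits from Zeb2hi CDPs stayed below 0, and no gene of the mitochondrial ribosome passed as higher, under any of the 17 alternatives for Zeb2low CDPs or the 16 for pre-CD8 DCs. Centring each array on its median moved the median of all genes between the CDP groups from 0.03 to -0.14, the large subunit median to -0.74 and the small to -0.79; relative to all genes they stayed at -0.60 and -0.65. Quantile normalization gave -0.42 and -0.48, and -0.62 for the small subunit in pre-CD8 DCs against Zeb2hi CDPs. It left 28 genes lower in Zeb2low CDPs and 26 in pre-CD8 DCs, with 7.19% and 8.46% of all genes tested lower. Printed Zeb2low calls lost under it were Mrpl58 (adjusted p = 0.0545), Mrps7 (0.0577), Mrps28 (0.0797), Mrpl27 (0.157) and Rpl7 (0.0579). In pre-CD8 DCs they were Mrpl41 (0.0744), Mrps17 (0.0759), Tufm (0.0596), Ptcd3 (0.0671) and Rpl34 (0.0657). The share of higher among all calls between the CDP groups was 30.4%, 14.2% with centring and 40.9% with quantile normalization. From Zeb2low CDPs to pre-CD8 DCs, centring turned the large subunit median to 0.041 and the small to 0.052.

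Leaving out 1 array at a time gave 12 to 37 lower genes in Zeb2low CDPs, 11 to 42 in pre-CD8 DCs and 11 to 37 in the F test, and a small subunit median of -0.73 to -0.57 in pre-CD8 DCs. Of all genes tested, 2.74% to 11.1% were then lower in Zeb2low CDPs and 5.33% to 13.1% in pre-CD8 DCs. With a replicate block for all 8 arrays, whose pre-CD8 numbers do not pair, 32 genes were lower in Zeb2low CDPs, 20 in pre-CD8 DCs and 25 varied in the F test. Printed Zeb2low calls lost under it were Mrpl17 (adjusted p = 0.0655), Mrpl27 (0.0622), Mrps18b (0.057), Mrps27 (0.0528) and Tfam (0.0618), while Mrpl22 passed (0.0439). In pre-CD8 DCs against Zeb2hi CDPs they were Mrps10 (0.0599), Mrps17 (0.0888), Mrps18a (0.0569), Tufm (0.0681), Gadd45gip1 (0.0673) and Rpl34 (0.0663). Guf1 was lost between Zeb2low CDPs and pre-CD8 DCs (0.111). With this block over all 8 arrays 8.46% and 7.47% of all genes tested were lower in Zeb2low CDPs and pre-CD8 DCs. The F test shares of all genes tested under the omissions and this block are not given here. The F test counts under them therefore cannot be set against all genes. The block over the CDP arrays changed no other printed call of a gene of the mitochondrial ribosome than those given with the results. Between the CDP groups 68 of the 77 differences were negative, 60 after quantile normalization, 73 with centring and 66 to 71 without 1 array. Between pre-CD8 DCs and Zeb2hi CDPs they were 74, then 72, 75 and 72 to 75. Among the genes whose difference is given, the direction turned between the CDP groups in Mrps12 at 0.021 and Mrpl41 at 0.14 after quantile normalization, Mrpl41 at 0.00061 without Zeb2low array 3 (-0.44 to 0.00061 without 1 array), and Mrpl47 at 0.08 without Zeb2hi array 1 and 0.19 without Zeb2low array 2 (-0.33 to 0.19 without 1 array). The cause of these changes was not tested.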
